A study of Homo sapiens with 24 samples.

Results

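Untreated T47D-co cells were compared with untreated T47D-Y cells across all measured genes. T47D is a human breast cancer line of luminal type, and the labels call T47D-co PR-positive and T47D-Y PR null, where PR is the progesterone receptor. The comparison used 6 of the 24 RNA-seq libraries of the study, 3 biological replicates per line, chosen by their labels and not by any measured value. All 6 cultures received water for 18 h and EtOH, the vehicle of the progestin R5020, for 6 h, so none had seen R5020 or interferon-alpha (IFN). Both lines were grown in MEM with 5% FBS and 6 ng/ml insulin. The other 18 libraries were given R5020, IFN or both. Of these only the 6 given IFN with EtOH are compared below, as a second set of libraries of the same lines. All 24 libraries entered the common scale and the shared estimate of the spread, on which the SEs and p-values of both sets rest. Of 25541 deposited entries, 20159 reached the minimum level and were tested.

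PR is a steroid-activated transcription factor encoded by PGR, and in breast epithelium its gene is a classical target of the oestrogen receptor. Bound to progesterone it drives growth and differentiation programmes of the mammary gland, and it shares DNA sequence preferences with the glucocorticoid receptor. T47D-Y is a PR-deficient subline that was once isolated from T47D-co, so each line stands for 1 cell population with its own history. PR status and every other difference between the lines cannot be told apart in this comparison.

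The 6 libraries held between 16449477 and 25571319 estimated fragments (median 18596771). Levels are given in scaled fragments, that is estimated fragments after all libraries were put on 1 scale, and differences as T47D-co minus T47D-Y on the log2(scaled fragments + 1) scale ± SE. This scale understates the difference of genes near 0. Across genes, libraries of the same line correlated at 0.985 to 0.987 and libraries of different lines at 0.906 to 0.911, and the first principal component, which separated the lines, held 82% of the variance. T47D-Y replicate 1 and T47D-co replicate 2 stood apart by a low share of mitochondrial transcripts, 0.942% and 1.07%, against 3.80 to 4.44% in the other 4. Of 20 markers of other cell types in the table, 8 stayed under 10 scaled fragments in every library. The authors' values had been scaled separately for each line, so any difference between these blocks other than scale cannot be told apart from the line.

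Most of the transcriptome differed between the lines. Of 20159 tested entries, limma called 12731 (63.2%) with a Benjamini-Hochberg adjusted p below 0.05, 5986 (29.7%) higher and 6745 (33.5%) lower in T47D-co. The 3 libraries of each line did not overlap in 68.8% of entries. Since a call alone is the common outcome here, a 2-fold minimum was added, which 3991 entries (19.8%) met: 1537 entries (7.62%) were called and at least 2-fold higher in T47D-co, and 2454 (12.2%) at least 2-fold lower. At least 16-fold differences were found in 146 entries higher and 251 lower, and at least 64-fold differences in 47 and 59. Among protein-coding genes, 960 of 12473 were at least 2-fold higher and 1458 at least 2-fold lower. The number of entries with 10 or more scaled fragments was 18323 to 18345 in T47D-Y and 17758 to 17896 in T47D-co. The median difference over all tested entries was -0.04. The balance between directions rests on the scale: on that of the deposited values 3613 entries were called higher and 9872 lower, and 1169 and 3258 were at least 2-fold apart. With the low mitochondrial libraries of the whole set left out, 2 of them compared here, 1521 entries were at least 2-fold higher and 2319 lower.

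**Figure D1:**
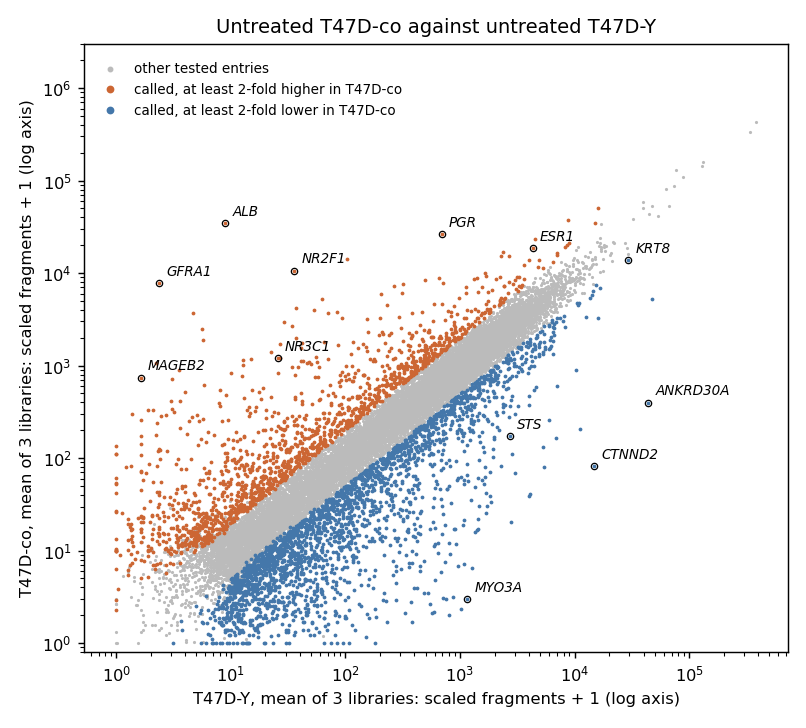
Mean scaled fragments + 1 of every tested entry in T47D-Y (x, log axis) and T47D-co (y, log axis), 3 libraries each, with orange and blue for entries called and at least 2-fold higher or lower in T47D-co. The 1537 orange and 2454 blue entries lie on both sides of a dense diagonal, with ALB and GFRA1 far above it and ANKRD30A and CTNND2 far below it.

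PGR matched the labels in direction but was not absent from T47D-Y. The 3 T47D-Y libraries held 709.1, 649.6 and 719.1 scaled fragments of PGR, and the 3 T47D-co libraries held 27960, 26310 and 25170. All T47D-co libraries lay far above all T47D-Y libraries, a difference of 5.25 ± 0.05 (limma, adjusted p = 3.7e-30). In bulk RNA, fewer cells with a transcript and less transcript per cell cannot be told apart, so the PGR signal of T47D-Y may lie in all cells or in some. PGR, on chromosome 11, is alone at its locus in the table.

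The glucocorticoid receptor gene differed by a similar factor. NR3C1, which encodes it, held 21.5, 25.9 and 26.6 scaled fragments in T47D-Y and 1266, 1233 and 1137 in T47D-co. The difference was 5.57 ± 0.13, and the groups were far apart. ESR1, the oestrogen receptor alpha, held 4418, 4191 and 4312 in T47D-Y against 19240, 19100 and 17990 in T47D-co. ESR1 was thus high in every library, and 2.12 ± 0.04 higher in T47D-co.

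Among the other nuclear receptors, NR2F1, also called COUP-TFI, an orphan nuclear receptor, held 29.7, 41.8 and 33.2 scaled fragments in T47D-Y and 11080, 10450 and 10500 in T47D-co, a difference of 8.23 ± 0.14. NR2F1 shares its locus with 1 other annotated gene, and the summed locus differed by 6.13. The retinoic acid receptor beta gene RARB was 2.72 ± 0.11 higher, from 171 ± 16.5 (SD, n = 3) in T47D-Y to 1135 ± 47.6 in T47D-co. ESRRG, an oestrogen-related receptor, was 1.97 ± 0.18 higher. Of 30 tested genes for nuclear receptors, their chaperones and coregulators, 17 were called higher, 9 lower and 4 not called. Of all entries 29.7% were called higher and 33.5% lower. Of the 30 genes 6 were at least 2-fold higher and 0 at least 2-fold lower, against 7.62% and 12.2% of all entries. The list's median difference was 0.23, against -0.04 over all entries, but it was -0.01 on the scale of the deposited values. In the 10 members alone at their locus the median was -0.03.

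**Figure D2:**
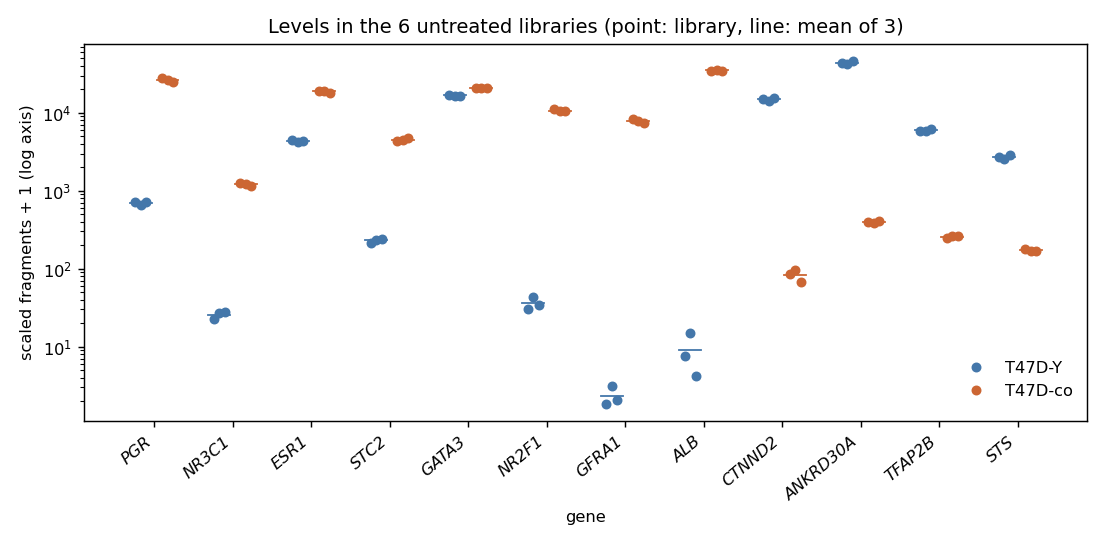
Scaled fragments + 1 (log axis) of 12 genes in each of the 6 untreated libraries, 1 point per library, with a line at the mean of 3. The steroid receptor genes PGR, NR3C1 and ESR1 and the genes NR2F1, STC2, GFRA1 and ALB lie higher in T47D-co, GATA3 by little, and CTNND2, ANKRD30A, TFAP2B and STS lie lower in T47D-co.

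Genes that answer progestins or glucocorticoids were spread in both directions in these cells, which had been given no R5020. Of 35 tested targets 14 were called higher, 13 lower and 8 not called (29.7% and 33.5% of all entries were called higher and lower). At least 2-fold higher were 10 and at least 2-fold lower 6, against 7.62% and 12.2% of all entries. MAP1B, a microtubule protein, was 3.12 ± 0.31 higher in T47D-co. NDRG1, a stress-responsive growth regulator, was 2.97 ± 0.10 higher, with 590 ± 98.9 scaled fragments in T47D-Y and 4582 ± 128 in T47D-co. The endothelin precursor EDN1 was 2.21 ± 0.03 higher, with 1562, 1547 and 1523 scaled fragments in T47D-Y against 7166, 7087 and 7149. IGFBP5, a binding protein of insulin-like growth factors, was 2.13 ± 0.04 higher. In the other direction, STAT5A, a prolactin-activated transcription factor, held 95.04, 121.5 and 129.8 scaled fragments in T47D-Y and only 8.66, 5.00 and 5.76 in T47D-co, a difference of -3.98 ± 0.20. F3, the tissue factor gene, differed by -1.70 ± 0.09. The glucocorticoid-regulated kinase SGK1, which PR also induces, was not called at -0.23, and TSC22D3 was not called at 0.02. The median of this list, 0.25, was 0.02 and 0.10 without T47D-Y replicate 3 and 2, 0.01 on the scale of the deposited values and -0.21 with a filter of 50 scaled fragments, so its sign is not settled.

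Oestrogen-responsive and luminal genes also did not move as a block. Of 37 tested, 21 were called higher, 12 lower and 4 not called, with 11 at least 2-fold higher and 5 lower (7.62% and 12.2% of all entries), and the median was 0.19, or -0.05 on the scale of the deposited values. STC2, a secreted glycoprotein, held 214, 232.3 and 239.4 scaled fragments in T47D-Y and 4311, 4505 and 4749 in T47D-co, a difference of 4.30 ± 0.06. GREB1, an oestrogen receptor cofactor and target, was 2.63 ± 0.06 higher, with 451.2, 415.2 and 465.9 in T47D-Y against 2828, 2717 and 2689 in T47D-co. SERPINA1, alpha-1-antitrypsin, was 4.46 ± 0.23 higher and IGFBP4, another insulin-like growth factor binding protein, 3.19 ± 0.06 higher. PRLR, the prolactin receptor, held 15860, 15770 and 16290 scaled fragments in T47D-Y and 51180, 51210 and 49200 in T47D-co, a difference of 1.66 ± 0.03.

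GATA3, FOXA1 and TFAP2B are transcription factors of luminal breast epithelium. GATA3 differed by 0.33 ± 0.03, from 16680 ± 418 in T47D-Y to 20930 ± 144 in T47D-co. FOXA1, a pioneer factor of the oestrogen receptor, differed by 0.99 ± 0.04, from 3601 ± 56.8 to 7171 ± 204. TFAP2B, an AP-2 factor, held 5859, 5781 and 6136 scaled fragments in T47D-Y and 248.3, 262.6 and 258.1 in T47D-co, a difference of -4.53 ± 0.06. Of the luminal keratin genes, KRT8 (-1.09 ± 0.04) and KRT18 (-1.26 ± 0.04), which share a locus, were lower in T47D-co, and KRT19 was not called (22150 ± 268 and 21060 ± 557). Also lower was CDH1, E-cadherin, at -0.91 ± 0.02. KRT8 still held 13620, 13810 and 14220 scaled fragments in T47D-co, against 29780, 29920 and 28780 in T47D-Y. The basal keratin KRT5 stayed under 3 scaled fragments in every library, and its difference was not called (-0.99 ± 0.46, limma adjusted p = 0.067), although it was called at -1.16 on the scale of the deposited values.

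Growth factor receptors and their ligands held differences of both signs. Of 33 tested genes of the ERBB, IGF and FGF families with their ligands, 13 were called higher and 15 lower (29.7% and 33.5% of all entries), and 6 were at least 2-fold higher and 9 lower (7.62% and 12.2% of all). ERBB4, a neuregulin receptor, held 2292, 2127 and 2418 scaled fragments in T47D-Y and 15950, 15780 and 14220 in T47D-co, a difference of 2.75 ± 0.05. IGF1R, the type I insulin-like growth factor receptor, was 1.10 ± 0.03 higher and the ligand gene EGF 3.09 ± 0.13 higher. MET, the hepatocyte growth factor receptor, held 682.6, 759.3 and 761.7 in T47D-Y and 22.1, 21.4 and 10.4 in T47D-co, a difference of -5.35 ± 0.22. IGF1, a ligand of IGF1R, held 709.9, 692.6 and 665.9 in T47D-Y and 26.9, 27.8 and 33.4 in T47D-co, a difference of -4.51 ± 0.22. RET, a receptor of the GDNF family ligands, differed by -2.51 ± 0.12 and ERBB2 by -0.54 ± 0.05. GFRA1, which encodes the GDNF co-receptor that partners RET, went the opposite way from RET and is described next.

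Most of the 15 largest rises were in genes near 0 in T47D-Y. ALB, serum albumin, held 6.61, 14.0 and 3.19 scaled fragments in T47D-Y and 34840, 35130 and 34760 in T47D-co. The T47D-co libraries agreed within 194 (SD) of their mean of 34910, and the difference was 12.12 ± 0.38. GFRA1 held 0.826, 2.15 and 1.06 in T47D-Y against 8229, 7905 and 7424 in T47D-co. That is 4 estimated fragments in all 3 T47D-Y libraries against 26072 in T47D-co, a ratio of 6070 with a 95% counting interval of 2370 to 22300. The other genes of the 15 largest rises included ARSJ, an arylsulfatase (9.69 ± 0.25), the RNA-binding protein NOVA1 (8.85 ± 0.25), the corticosteroid-binding globulin SERPINA6 (8.45 ± 0.25) and LIN28B, a repressor of let-7 maturation (7.06 ± 0.25). AFP, alpha-fetoprotein, which lies beside ALB on chromosome 4, held 0.826, 4.30 and 0 in T47D-Y and 307.9, 274 and 289.2 in T47D-co (7.09 ± 0.43). TYRP1, a melanin synthesis gene, differed by 9.08 ± 0.31 but shares its locus, whose sum differed by 2.95.

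ALB is also a marker of another cell type, the hepatocyte, and most of the difference in the summed level of such markers was its own. The summed level of the 20 such markers was 734.6 to 750.6 scaled fragments in T47D-Y and 35980 to 36290 in T47D-co. Without ALB, the other 19 summed to 720.6 to 743.9 and 1163 to 1216. No other hepatocyte gene was among the 20. AFP, SERPINA1 and SERPINA6, which are not among them, were also higher in T47D-co. Of 12 markers that reached the minimum level 5 were called higher and 4 lower (29.7% and 33.5% of all entries). At least 2-fold higher were 4 and at least 2-fold lower 3, against 7.62% and 12.2% of all entries. COL1A1, a fibroblast collagen, differed by 1.23 ± 0.11. Of the adipocyte hormone genes, ADIPOQ differed by 1.76 ± 0.33, from 14.8 ± 4.51 to 51.4 ± 8.92 scaled fragments, and LEP by -2.55 ± 0.58, from 10.4 ± 0.586 to 0.943 ± 0.220. CHGA, a neuroendocrine marker (-2.10 ± 0.30), and VWF, an endothelial one (-2.52 ± 0.63), were also lower in T47D-co. Their part in the other results was not tested.

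Among the genes lower in T47D-co, ANKRD30A encodes the breast differentiation antigen NY-BR-1. ANKRD30A held 43480, 42220 and 46020 scaled fragments in T47D-Y and 398.4, 383.9 and 410.2 in T47D-co, a difference of -6.78 ± 0.05. CTNND2, delta-catenin, held 14910, 14310 and 15310 in T47D-Y and 84.7, 94.9 and 65.7 in T47D-co (-7.50 ± 0.10). Groups did not overlap for either gene, as in 68.8% of all entries, and non-overlap was a condition for the largest falls. The levels in T47D-co were low but not 0. MYO3A, an unconventional myosin, held 1135, 1179 and 1168 in T47D-Y and 3.85, 2.14 and 0 in T47D-co (-8.87 ± 0.54). APCDD1, a Wnt inhibitor, held 797.5, 813.1 and 801 in T47D-Y and 1.93, 0 and 1.15 in T47D-co, a ratio of 886 (95% counting interval 303 to 4300). Others among the 15 largest falls were the amino acid transporter SLC7A2 (-8.92 ± 0.29), the potassium channel KCNK1 (-8.48 ± 0.49), the fructose transporter SLC2A5 (-7.64 ± 0.41), SLFN11, a replication stress factor (-7.46 ± 0.39), and the endocytic receptor LRP2 (-7.24 ± 0.17). GTSF1, a gene of the piRNA pathway, differed by -8.43 ± 0.42, but the summed locus of 5 genes that it shares differed by only -0.44.

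Genes on in 1 line and at the floor in the other numbered 27 in T47D-Y and 23 in T47D-co. They were protein-coding, averaged at least 50 scaled fragments in 1 line and had at most 3 estimated fragments in every library of the other. MAP7D3, a microtubule-associated protein, held 174.4, 166.7 and 204.2 scaled fragments in T47D-Y and 0 in all T47D-co libraries, and was at least 64.3-fold lower in T47D-co against a floor of 3 fragments per library. IGFBPL1, an IGF-binding-like protein, was at 0 in all T47D-Y libraries and at least 36.6-fold higher in T47D-co, at 109 ± 14.7. Transcription factors were found on both sides: SALL4 (99.1 ± 7.22), BATF (80.7 ± 4.78) and EBF3 (59.7 ± 7.72) were on in T47D-Y, and EBF1 (338 ± 15.5) and FOXJ1 (122 ± 8.98) in T47D-co. The summed locus of FOXJ1 differed by 1.17 only. The paralogs EBF1 and EBF3 were thus on in opposite lines. FLT4, the receptor of lymphatic growth factors, was on in T47D-co at 415 ± 56.9, and HTR7, a serotonin receptor, in T47D-Y at 136 ± 1.39. CNTNAP3 and CNTNAP3B, both on in T47D-Y, are near-identical copies, and the division of fragments between them is uncertain.

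Many antiviral interferon-stimulated genes, though not all, were higher in untreated T47D-co. Their products block viral replication. Of 55 tested, 27 were called higher in T47D-co, 10 lower and 18 not called (29.7% and 33.5% of all entries were called higher and lower). At least 2-fold higher were 20 and at least 2-fold lower 0, against 7.62% and 12.2% of all entries. The median difference was 0.62, against -0.04 over all entries, and 0.44 without the libraries of low mitochondrial share. It stayed positive under every alternative run, from 0.39 to 0.66. ISG15, a ubiquitin-like modifier, held 9.92, 14.0 and 12.8 scaled fragments in T47D-Y and 72.2, 59.95 and 64.5 in T47D-co, a difference of 2.34 ± 0.15. SAMD9, an inhibitor of viral translation, held 8.26, 14.0 and 13.8 against 63.5, 104.9 and 70.3 (2.63 ± 0.22), and the RNA helicase DDX60 held 24.0, 22.6 and 25.5 against 98.2, 108.5 and 106 (2.07 ± 0.12). In each of these genes the lowest T47D-co library lay above the highest T47D-Y library. The lines did not overlap in 68.8% of all entries.

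Others of the list shared their loci, where the authors' software divided fragments between genes. IFIT1, an inhibitor of viral mRNA translation, differed by 2.23 ± 0.30, but the summed locus by 0.23. The oligoadenylate synthetase OAS2 differed by 2.47 ± 0.22, its summed locus by 0.70, and PARP10, a mono-ADP-ribosyltransferase, by 2.27 ± 0.10, its summed locus by 1.17. Of the 20 genes at least 2-fold higher, 14 are alone at their locus. The genes lower in T47D-co differed less: LGALS3BP, a secreted glycoprotein, held 265.3, 282.9 and 300 scaled fragments in T47D-Y and 206.9, 212 and 248.9 in T47D-co (-0.35 ± 0.09), and PLSCR1, a phospholipid scramblase, differed by -0.42 ± 0.07.

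Promoters of the antiviral genes, taken from RefSeq on GRCh38.p14 from 250 bases before to 50 after each gene's start, were searched on both strands for the core of the interferon-stimulated response element: GAAA, any 2 bases, and GAAA again. The stretches below show the matches in 6 genes that were at least 2-fold higher in T47D-co and in 2 that were lower, and they are shown because the letters occur in both. Capitals mark the matches (those on the opposite strand begin and end with TTTC), with 30 bases on each side, in the 5′ to 3′ direction of the gene. In ISG15 and IFI6 capitals cover 2 overlapping and 3 separate matches.
ISG15 (chr1:1013354-1013429, + strand, higher): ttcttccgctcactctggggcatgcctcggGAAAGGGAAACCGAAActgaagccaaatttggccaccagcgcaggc
IFIT1 (chr10:89392477-89392559, + strand, higher): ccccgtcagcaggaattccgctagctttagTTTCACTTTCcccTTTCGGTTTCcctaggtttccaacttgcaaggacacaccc
IFI6 (chr1:27672246-27672378, - strand, higher): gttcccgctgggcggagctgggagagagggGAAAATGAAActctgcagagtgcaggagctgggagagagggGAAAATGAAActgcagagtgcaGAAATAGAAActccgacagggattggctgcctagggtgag
DDX60 (chr4:168318766-168318870, - strand, higher): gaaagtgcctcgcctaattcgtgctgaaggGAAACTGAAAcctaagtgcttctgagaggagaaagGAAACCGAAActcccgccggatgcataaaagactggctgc
SAMD9 (chr7:93118076-93118145, - strand, higher): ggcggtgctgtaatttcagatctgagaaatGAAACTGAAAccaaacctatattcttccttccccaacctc
GBP1 (chr1:89065296-89065365, - strand, higher): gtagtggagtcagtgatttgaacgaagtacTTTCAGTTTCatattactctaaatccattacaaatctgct
LGALS3BP (chr17:78979942-78980011, - strand, lower): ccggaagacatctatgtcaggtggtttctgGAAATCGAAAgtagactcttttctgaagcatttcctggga
PLSCR1 (chr3:146544647-146544716, - strand, lower): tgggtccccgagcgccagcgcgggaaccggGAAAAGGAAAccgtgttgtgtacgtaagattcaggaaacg

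The motif was common in the antiviral list, and its share was not larger among the genes with the larger line difference. It was present in 30 of 44 antiviral genes with a promoter in the table (68.2%), against 1195 of all 27305 genes (4.38%). Of the antiviral genes at least 2-fold higher in T47D-co, 8 of 14 held it (57.1%), and of the other antiviral genes 22 of 30 (73.3%). Over all protein-coding genes, it was in 34 of 714 at least 2-fold higher in T47D-co (4.76%) and in 40 of 1062 at least 2-fold lower (3.77%), against 384 of 9807 tested (3.92%). A palindromic oestrogen response element (GGTCA, any 3 bases, TGACC) was in 0 of 28 genes of the oestrogen and luminal list and in 20 of all 27305. A match describes the letters in this window and does not show binding.

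In the libraries given IFN the antiviral difference between the lines was smaller or had turned. There 13 of the 55 genes were called higher in T47D-co (29.6% of all entries) and 30 lower (33% of all), 3 and 10 of them at least 2-fold (7.63% and 12.1% of all), and the median difference was -0.34. The change of the line difference with IFN was tested as an interaction in the same limma fit. It was called for 26 of the 55 antiviral genes, all with a smaller or more negative difference under IFN, while 76 of all 20159 entries (0.377%) were called, 0.313% with a negative and 0.0645% with a positive change. ISG15 reached 524.6, 597.2 and 554 scaled fragments in T47D-Y with IFN and 473.2, 544.9 and 546.6 in T47D-co, so the groups overlapped, and the line difference changed by -2.44 ± 0.21. MX1, a GTPase against viral replication, was 0.98 ± 0.14 higher in T47D-co without IFN. With IFN it held 3665, 4228 and 4187 in T47D-Y and 2458, 2444 and 2630 in T47D-co, all T47D-co libraries below all T47D-Y libraries. PARP10 kept a line difference of 1.75 with IFN, and its change was not called.

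**Figure D3:**
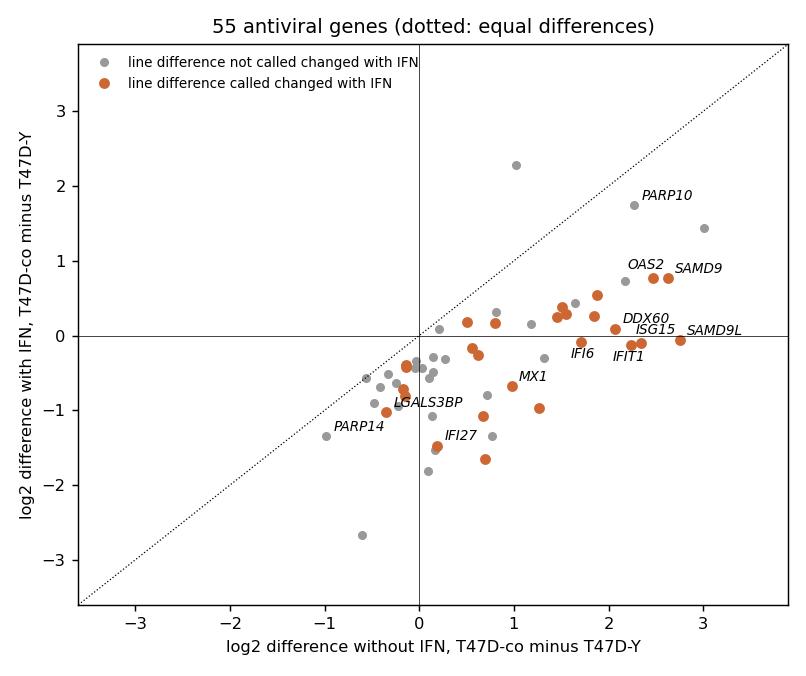
Log2 difference between T47D-co and T47D-Y of 55 antiviral genes without IFN (x) and with IFN (y), from libraries not shared between the axes, with the line of equal differences dotted. The 26 genes whose line difference was called changed with IFN, in orange, lie below the dotted line, ISG15 at 2.34 without IFN and near 0 with it.

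Interferon signalling genes differed in both directions, with 75% called against 63.2% of all entries. Of 28 tested genes of interferon signalling 8 were called higher, 13 lower and 7 not called (29.7% and 33.5% of all entries were called higher and lower), with 2 at least 2-fold higher and 3 lower (7.62% and 12.2% of all). STAT2 held 1792, 1852 and 1740 scaled fragments in T47D-Y and 872.8, 930.6 and 891.7 in T47D-co, a difference of -0.998 ± 0.04. IRF7, a transcription factor that amplifies interferon production, was 0.87 ± 0.10 higher and the kinase TBK1 0.63 ± 0.05 higher in T47D-co. IRF1, a related factor, differed by -0.64 ± 0.13. CISH, a cytokine signalling inhibitor, differed by 2.27 ± 0.14 and its summed locus by 0.25. Of 12 tested antigen presentation genes 5 were called higher and 4 lower. B2M, beta-2-microglobulin, was 0.28 ± 0.05 higher without IFN, but was not called on the scale of the deposited values (0.05). HLA-B differed by 1.46 ± 0.35, from 64.3 ± 38.6 to 162 ± 27.0.

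Genes of glycolysis and the hypoxia response were mostly higher in T47D-co. Of 25 tested 18 were called higher, 6 lower and 1 was not called, and 13 were at least 2-fold higher and 2 lower. Of all entries 29.7% were called higher and 7.62% were at least 2-fold higher. The median was 1.12, or 0.46 over summed loci. LDHA, a subunit of lactate dehydrogenase, held 2741, 2805 and 3073 scaled fragments in T47D-Y and 7411, 8015 and 7677 in T47D-co (1.42 ± 0.05). LDHB, the other main subunit, went the opposite way: 708.2, 687.4 and 655.3 in T47D-Y and 4.81, 6.42 and 3.46 in T47D-co, a difference of -6.89 ± 0.24, with -4.33 for its summed locus. BNIP3, a mitophagy receptor, was 1.52 ± 0.07 higher. The glycolytic enzyme gene GAPDH, often used as a reference gene, was lower in T47D-co, with 14140, 14720 and 14530 scaled fragments in T47D-Y and 6430, 6576 and 6398 in T47D-co (-1.16 ± 0.03). PDK1, a pyruvate dehydrogenase kinase, differed by 1.43 ± 0.08 as deposited, but its summed locus by -0.40.

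Genes of xenobiotic and steroid metabolism were mostly lower in T47D-co. Of 26 tested 3 were called higher, 18 lower and 5 not called, with 1 at least 2-fold higher and 10 lower, and the median was -0.63. Of all entries 33.5% were called lower and 12.2% were at least 2-fold lower. STS, the steroid sulfatase that frees oestrogen precursors, held 2697, 2578 and 2830 scaled fragments in T47D-Y and 178, 165.6 and 169.4 in T47D-co (-3.97 ± 0.07). CYP1A1, an aryl hydrocarbon receptor target, held 597.5, 590.5 and 579.8 against 141.5, 141.3 and 136 (-2.07 ± 0.12). CYP1B1, which hydroxylates oestrogens, differed by -1.41 ± 0.03, and CYP4X1, an orphan cytochrome P450, by -3.63 ± 0.12. The 28 tested genes of sterol and fatty acid synthesis were balanced, with 11 called higher and 12 lower (29.7% and 33.5% of all entries). Their median was 0.01, or -0.22 on the scale of the deposited values. FDFT1, squalene synthase, differed by -0.77 ± 0.03, FASN, fatty acid synthase, by -0.61 ± 0.08 and IDI1, an isoprenoid isomerase, by 0.76 ± 0.04.

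**Figure D4:**
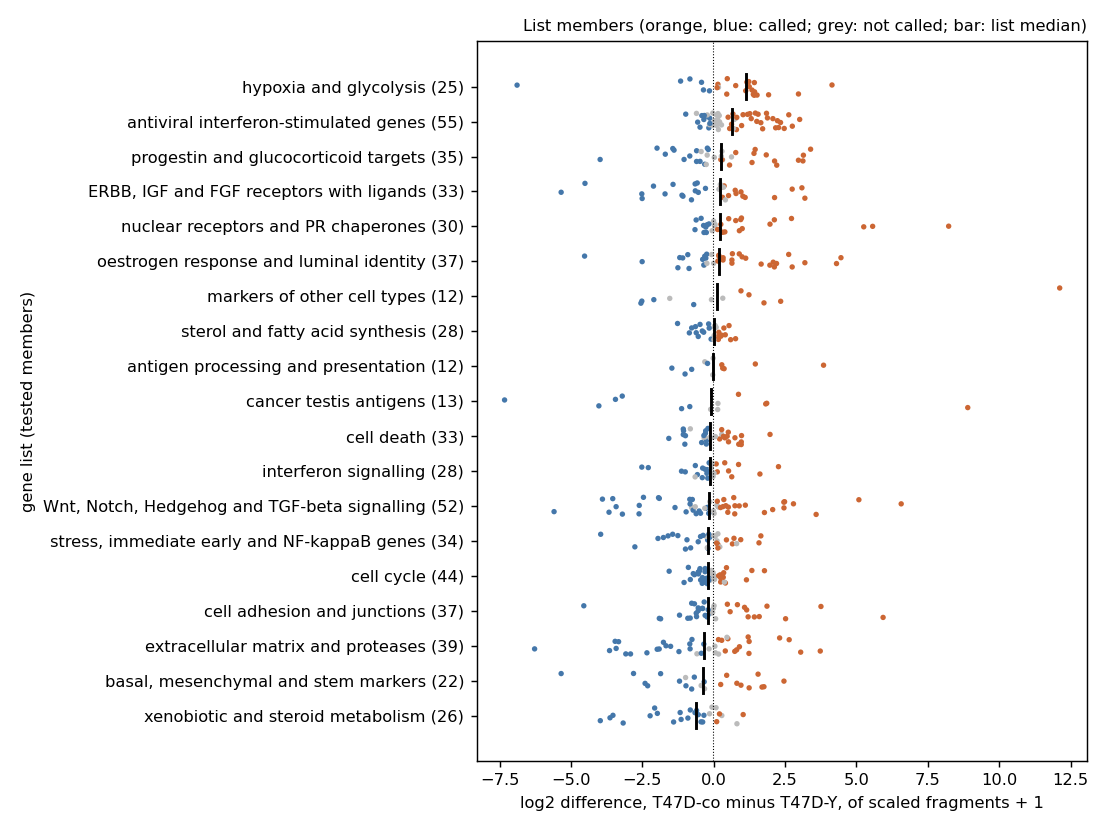
Log2 difference of every tested member of 19 gene lists (x), with the number of tested members behind each list name (y), colour for called members, grey for members not called, and a bar at the list median. The dotted line is the median of all tested entries, -0.04, and the list medians run from -0.63 for xenobiotic and steroid metabolism to 1.12 for hypoxia and glycolysis.

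Adhesion, matrix and mesenchymal genes held large differences of both signs. Of 37 adhesion and junction genes 12 were called higher and 20 lower, against 29.7% and 33.5% of all entries. CLDN1, a tight junction claudin, held 630.5, 651.8 and 690.4 scaled fragments in T47D-Y and 9028, 8861 and 8793 in T47D-co (3.76 ± 0.05), and ALCAM, a cell adhesion molecule of the immunoglobulin family, differed by 2.52 ± 0.05. DSC2, a desmosomal cadherin, went the other way, from 1440 ± 44.5 to 60.7 ± 8.80 (-4.55 ± 0.11). ITGA5, an integrin subunit, differed by 1.86 ± 0.12 as deposited and by -0.44 over its summed locus, the one that also holds GTSF1. Of 39 matrix and protease genes 14 were called higher and 19 lower, 7 and 14 of them at least 2-fold. Of all entries 7.62% were at least 2-fold higher and 12.2% lower. The median of the matrix list was -0.35, or 0.03 over summed loci. The protease inhibitor TIMP3 held 934.1, 871.7 and 956.8 in T47D-Y and 11.9, 10.1 and 10.7 in T47D-co (-6.28 ± 0.29). PLAU, the urokinase gene, differed by -3.65 ± 0.22 and LAMB3, a laminin of basement membranes, by -3.08 ± 0.07. TIMP1 differed by -3.42 ± 0.20 as deposited and by 0.39 over its summed locus, so its direction is uncertain.

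Basal, mesenchymal and stem cell markers were divided, with 9 of 22 called higher and 10 lower (29.7% and 33.5% of all entries). VIM, vimentin, held 113.4, 101.9 and 104.2 scaled fragments in T47D-Y and 21.0, 15.9 and 21.4 in T47D-co (-2.40 ± 0.33), and TP63, a basal transcription factor, differed by -2.81 ± 0.23. TGFB2, a growth factor of the TGF-beta family, was 2.46 ± 0.11 higher in T47D-co. Of 52 genes of Wnt, Notch, Hedgehog and TGF-beta signalling 21 were called higher and 23 lower. At least 2-fold higher were 10 and at least 2-fold lower 12, against 7.62% and 12.2% of all entries. DLL1, a Notch ligand, held 14.0, 6.45 and 14.9 in T47D-Y and 1205, 1173 and 1073 in T47D-co (6.57 ± 0.29). BMPR1B, a bone morphogenetic protein receptor, was 5.08 ± 0.21 higher. Of this list's Wnt genes, those lower in T47D-co included the receptor FZD8 (104.1, 122.6 and 92.5 against 1.93, 0.714 and 1.15), the ligands WNT6 (-3.90 ± 0.38) and WNT5A (-3.54 ± 0.49) and the inhibitor DKK1 (-3.67 ± 0.22). RSPO2, a secreted Wnt agonist outside the list, was higher in T47D-co, at 0.913 ± 0.842 in T47D-Y and 85.4 ± 10.7 in T47D-co.

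Cancer-testis antigens are germline genes that tumours re-express, many of them on the X chromosome. Of 13 tested 4 were called higher and 6 lower, against 29.7% and 33.5% of all entries. At least 2-fold higher were 3 and at least 2-fold lower 5, against 7.62% and 12.2% of all entries. MAGEB2 held 0.826, 0 and 1.06 scaled fragments in T47D-Y and 734.3, 740.1 and 752.3 in T47D-co (8.90 ± 0.27). MAGEA3 held 805.7, 799.1 and 810.6 in T47D-Y and 52.9, 50.7 and 42.6 in T47D-co (-4.02 ± 0.14), and PASD1 differed by -7.33 ± 0.30. Several MAGEA genes are close copies, so the division of fragments among them is uncertain.

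Of 44 cell cycle genes 11 were called higher and 24 lower (29.7% and 33.5% of all entries). At least 2-fold higher were 3 and at least 2-fold lower 2 (7.62% and 12.2% of all entries), with a median of -0.20. MKI67, the Ki-67 proliferation antigen, held 12100, 11970 and 12100 scaled fragments in T47D-Y and 8541, 8276 and 8886 in T47D-co (-0.49 ± 0.03), and the thymidylate synthase gene TYMS differed by -0.89 ± 0.03. CCND1, cyclin D1, held 3549, 3535 and 3638 against 1747, 1717 and 1747 (-1.04 ± 0.04), while CDK6, a kinase partner of D-type cyclins, was 1.34 ± 0.04 higher. Of 34 stress, immediate early and NF-kappaB genes 9 were called higher and 17 lower, against 29.7% and 33.5% of all entries. At least 2-fold higher were 2 and at least 2-fold lower 7, against 7.62% and 12.2% of all entries. JUN differed by 1.65 ± 0.06, FOSL2 by -1.44 ± 0.05, the chemokine CCL2 by -2.76 ± 0.34 and the endoplasmic reticulum stress gene HERPUD1 by -1.76 ± 0.06. Of 33 cell death genes 13 were called in each direction, against 29.7% higher and 33.5% lower of all entries. TNFSF10, the death ligand TRAIL, was 1.97 ± 0.14 higher in T47D-co, and its receptor TNFRSF10A was lower (-1.57 ± 0.06). Of 4 tested HOX genes, 2 were called higher and 1 lower, none by 2-fold. Of the 2 tested mitochondrial genes, MT-CYB was called (0.24 ± 0.06), but it was -0.05 under quantile normalization.

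Differences were not spread evenly along the chromosomes. Entries averaging at least 50 scaled fragments were grouped by their deposited hg19 start into windows of 10 Mb, and 286 windows held at least 15 of them, 14014 entries in all. The median difference was above 0.5 in 12 windows, below -0.5 in 17 and between in 257. All 29 windows beyond these limits kept their sign in the libraries given IFN, which were not used to choose them. They also kept it in each of the 6 libraries set against the other line's mean. The windows were chosen from these same 6 libraries, so that is no separate support. The windows are a description with no test, and DNA copy number was not measured here.

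Chromosome 16 was split into a part higher and a part lower in T47D-co. Its 4 windows below 40 Mb had medians of 0.47 to 0.69, and its 4 windows beyond had medians of -0.86 to -0.43. In the first window (0 to 10 Mb) 150 of 158 entries lay above 0, and 140 were called higher. There the calcium channel gene CACNA1H differed by 6.71 ± 0.13 and HSD3B7, a bile acid synthesis gene in the window from 30 to 40 Mb, by 1.71 ± 0.08. In the lowest window, from 50 to 60 Mb, 46 of 55 entries lay below 0, among them MMP15, a membrane-bound matrix protease (-1.98 ± 0.09), and HERPUD1. That window was uneven: its first 5 Mb had a median of -0.07 and its second 5 Mb of -1.06. CDH1 lies further along the same chromosome.

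Chromosome 8 showed the opposite order. Its 5 windows below 50 Mb had medians of -0.80 to -0.33, and all 9 windows beyond had medians of 0.23 to 0.53. TNFRSF10A and FDFT1, both lower in T47D-co, and NDRG1, higher, lie on this chromosome. On chromosome 3 the larger differences lay in separate stretches. The windows from 60 to 70 and from 70 to 80 Mb had the lowest medians of all, -1.07 and -0.91, with 25 of 26 and 12 of 15 entries below 0. They hold MITF, the melanocyte lineage transcription factor (253 ± 16.9 in T47D-Y, 36.6 ± 4.35 in T47D-co, -2.76 ± 0.14), RYBP, a Polycomb subunit (-1.69 ± 0.05), and PTPRG, a receptor phosphatase that differed by -6.46 ± 0.14 and by -1.89 over its summed locus. The window from 160 to 170 Mb had the highest median, 0.80, with 18 of 21 entries called higher, among them BCHE, butyrylcholinesterase (5.51 ± 0.16). The 3 windows after it had medians of 0.56 to 0.60.

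On the X chromosome 2 windows stood out, from 130 to 140 Mb (-0.90, with 31 of 34 entries below 0) and from 150 to 160 Mb (-0.84, with 50 of 53 below 0). RAP2C, a small GTPase in the former, held 9962, 10270 and 10520 scaled fragments in T47D-Y and 957.5, 863.4 and 861.6 in T47D-co (-3.52 ± 0.05, and -3.07 for its summed locus). VGLL1, a TEAD cofactor there, differed by -5.43 ± 0.09, and MAP7D3, at 0 in T47D-co, lies there too. Single genes departed from their windows as well. ANKRD30A, far lower in T47D-co, lies in a window of chromosome 10 (30 to 40 Mb) with a median of 0.80, beside the integrin gene ITGB1 (1.59 ± 0.04).

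**Figure D5:**
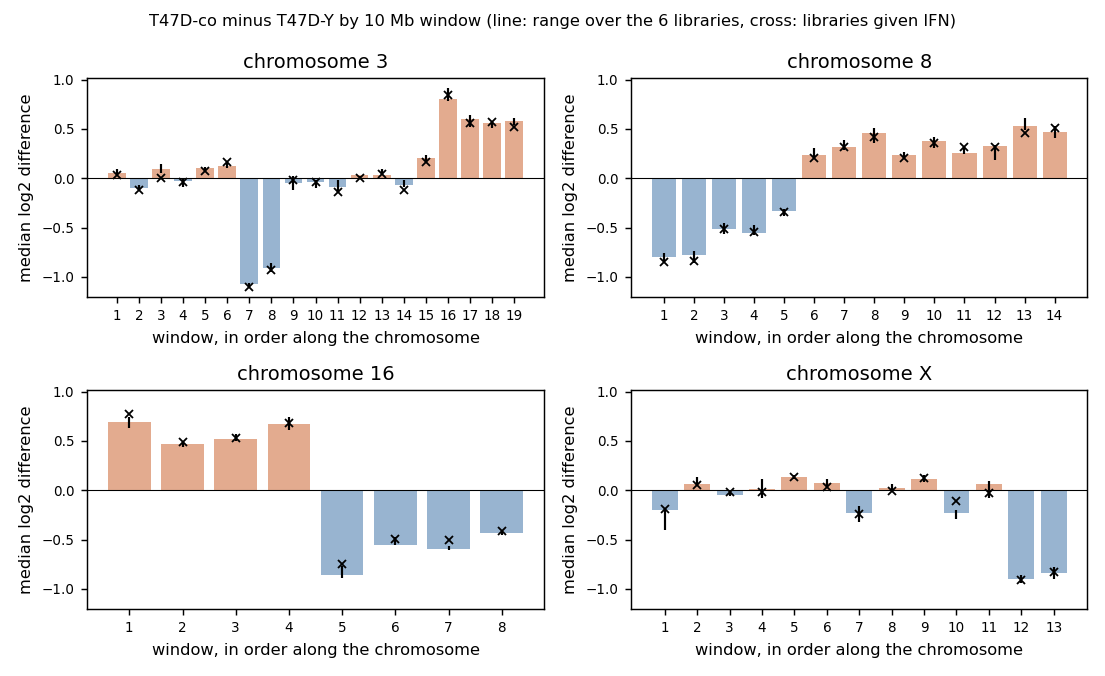
Median log2 difference, T47D-co minus T47D-Y, of windows with at least 15 entries, in order along chromosomes 3, 8, 16 and X, as bars, with a black line for the range over the 6 libraries and a cross for the libraries given IFN. Chromosome 16 passes from 0.47 to 0.69 in its first 4 windows to -0.86 to -0.43 in the last 4, and chromosome 8 passes the other way.

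The same lines given IFN, in 6 libraries that share none with the untreated ones, gave nearly the same differences. There 12629 entries (62.6%) were called, 3981 of them (19.7%) at least 2-fold apart, with 1539 higher in T47D-co and 2442 lower. Of the 1537 entries at least 2-fold higher without IFN, 1248 (81.2%) were so with IFN, and of the 2454 lower, 2092 (85.2%). Only 2 entries called at least 2-fold in 1 direction without IFN were called in the other with it. Across the 14787 entries with a mean of at least 50 in 1 line, the differences without and with IFN correlated at r = 0.983 (Spearman rho = 0.961), where the points are genes of the same libraries and not replicates. With IFN, ALB held 30.7 ± 14.8 scaled fragments in T47D-Y and 35050 ± 1900 in T47D-co, CTNND2 15780 ± 212 and 94.9 ± 9.19, and NR3C1 28.2 ± 1.92 and 1228 ± 27.2. These 3 genes were chosen for this after their values were seen. Of the 76 entries whose line difference was called changed with IFN, 63 changed downwards and 13 upwards in T47D-co.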

How the data were processed

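Total RNA of 24 libraries was sequenced, and 6 libraries were compared here, grouped by their labels. The submitters' processing notes name TopHat2 2.0.12, Cufflinks 2.2.1 and the GRCh37 (hg19) build. The deposited table gives a signal per gene and library and names no unit in its header. In each library 97.8 to 99.1% of values of genes alone at their locus (64.5 to 66.9% of all) were whole multiples of 1 step, to 0.05 of a step. The deposited signal was therefore read as estimated fragments over a factor set separately in 4 blocks of 6 libraries. This reading is inferred from the steps. Values were multiplied back to fragments and put on 1 scale by the median of ratios over 24 libraries, on 14209 entries averaging at least 50 fragments. At 12952 entries that share a locus the authors' software split fragments among genes, for which reason no count model was run, and 28 entries with repeated names were left out.

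Entries with at least 10 scaled fragments in 3 libraries were tested with limma 3.58.1 in R 4.3.3, after parsing in Python 3.11.15, with a variance trend on log2(scaled fragments + 1) and 8 group means over 24 libraries (16 residual and 8.05 prior degrees of freedom). Calls are 2-sided at a Benjamini-Hochberg adjusted p under 0.05. The fit was tested on simulated data. Nothing says how the biological replicates were raised, so p-values measure the spread between these samples, and counting intervals cover counting error only. The members, the 21 gene lists and the tests were chosen with earlier results of these data known. The text names genes by a rule: up to 15 largest rises and falls, up to 6 called members of each list, on-off genes, up to 4 genes of each extreme window, and a set of receptors, keratins and interferon genes. IFI6, MX1, SAMD9L, UBE2L6, PLSCR1, LGALS3BP, GBP1, PRLR, IGF1R and GAPDH, and the members named with a difference alone, were added after their values were seen. Promoter sequences are RefSeq's, matched by symbol for 9807 of 12473 tested protein-coding genes. Some genes of the lists, IRF9, TFF1 and PER1 among them, were not analysed or are not reported here.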

Additional observations from a re-analysis of the deposited data

Results flagged for a closer look

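The line difference of 15 named genes changed between the libraries without and with IFN, by limma's interaction test over all entries (Benjamini-Hochberg adjusted p under 0.05, 3 libraries in each of 4 groups). The changes on the log2 scale were -2.82 for SAMD9L, -2.44 for ISG15, -2.35 for IFIT1, -1.98 for DDX60, -1.86 for SAMD9, -1.80 for IFI6, -1.69 for OAS2, -1.66 for MX1 and -1.20 for UBE2L6. They were -0.78 for IRF7, -0.68 for LGALS3BP, -0.51 for B2M, -0.46 for CYP1B1, -0.38 for FOSL2 and -0.32 for STAT2. In SAMD9L, a paralog of SAMD9, the untreated T47D-Y libraries held 1.65, 3.23 and 2.13 scaled fragments and the T47D-co libraries 22.1, 19.3 and 21.9. CYP1B1 and FOSL2 belong to no interferon list.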

How the results depend on the processing

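Across 19 alternatives in scale, pseudocount, low-value filter, model and libraries, 220 named genes other than PGR gave 4180 values, of which 4165 kept their direction and their side of the threshold, 8 lost the call, 2 gained it and 5 reversed. PGR lay between 5.02 and 5.29, and between 5.21 and 5.29 without 1 library. On the scale of the deposited values 3613 entries were called higher and 9872 lower, and 9530 entries were called for a change with IFN, a scale that shifts T47D-co against T47D-Y without IFN by -0.22. Quantile normalization gave 1939 entries at least 2-fold higher and 2099 lower. With a filter of 50 scaled fragments, which tests fewer entries, 1573 were at least 2-fold lower. Leaving out 1 library gave 11965 to 12133 calls in all, 5613 to 5720 of them higher and 6344 to 6424 lower. It gave 1484 to 1546 entries at least 2-fold higher, 2369 to 2431 lower, 12569 to 12615 calls in the libraries given IFN, and 55 to 76 changes with IFN, or 52 without the libraries of low mitochondrial share.

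Summed loci reversed HOXC11 (0.23), ITGA5 (-0.44), PDK1 (-0.40) and TIMP1 (0.39), and the median of the matrix list was 0.03. The summed loci hold other genes as well. MT-CYB was -0.05 under quantile normalization. The call of HOXC11 was lost in 4 of the 6 fits without 1 library, at -0.19 to -0.14. List medians near 0 changed sign with the setting, as for progestin targets (-0.21 to 0.29), ERBB, IGF and FGF genes (-0.05 to 0.26), antigen presentation (-0.26 to 0.13) and cancer-testis antigens (-0.98 to 0.28). The cause of the reversals and of the other shifts was not tested.

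Same-numbered replicates of the lines deviated from their group means together at r = -0.32, -0.33 and 0.16. T47D-Y replicate 1 and T47D-co replicate 2, both of low mitochondrial share, did so at r = 0.52. With 3 libraries per line, these values show no pairing by number and cannot exclude one. With the replicate number as a block 12698 entries were called, against 12731, and 78 changed with IFN.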
